A study of Mus musculus with 4 samples.

Results

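The vascular endothelial growth factor (VEGF) genes of the mouse were read in single cells of the *Tbx1* lineage at E9.5: the ligands *Vegfa*, *Vegfb*, *Vegfc* and *Vegfd* and the receptor genes *Flt1* (VEGFR1), *Kdr* (VEGFR2) and *Flt4* (VEGFR3). These 7 genes were taken by symbol from the 32285 genes of the deposited tables, 1 row for each. Cells came from the microdissected pharyngeal region and heart of embryos and were sorted as GFP-positive and DAPI-negative. Every embryo carried Tbx1Cre/+, a knock-in of *Cre* that leaves 1 functional copy of *Tbx1*, and the reporter GFP F/+, so both genotypes were *Tbx1* heterozygotes and only cells with a history of *Tbx1* expression were sampled. The labels give the strain as outbred SwissWebster, whereas the methods describe a backcross to it followed by upkeep on a mixed background with C57BL/6. The conditional heterozygote (cHet) was Kmt2d F/+ and the conditional knockout (cKO) was Kmt2d F/F. KMT2D is a histone H3 lysine 4 methyltransferase that acts at enhancers. Each genotype had 2 libraries, of 4 pooled embryos in Rep1 (Next GEM kit) and of 3 pooled embryos in Rep2 (GEM-X kit). Thus n = 2 per genotype, and kit, embryo pool and replicate cannot be told apart. In the paper the somite range of cKO lies within that of cHet in Rep1 and begins where that of cHet ends in Rep2. The part of such a difference in stage was not tested.

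VEGFA, which cells release under low oxygen and during tissue growth, binds FLT1 and KDR. KDR carries most of the growth and migration signal in endothelial cells, whereas FLT1 binds VEGFA tightly, signals weakly and is also made as a soluble trap. VEGFB binds FLT1. VEGFC and VEGFD are made as precursors and bind FLT4, and VEGFC, once cleaved, also binds KDR. Both are best known for lymphatic growth, although FLT4 is also found in blood vessels of the early embryo. In the pharyngeal region the arches and their arteries form in sequence from front to back, and by this stage the heart has looped and is beating.

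*Vegfa* lies at chr17:46016993-46032369, *Vegfb* at chr19:6982473-6987651, *Vegfc* at chr8:54077606-54187096 and *Vegfd* at chrX:164373378-164402650 (GRCm38, GENCODE M21). *Kdr* lies at chr5:75932827-75978458, *Flt1* on the same chromosome at chr5:147561604-147726011 and *Flt4* at chr11:49609263-49652739. The receptor genes were alike in being highest in the endothelium (below), so the 250 bases before their RefSeq starts on GRCm38.p6 are shown 5′ to 3′ on the strand of the gene, at chr5:75978456-75978705 (minus strand), chr5:147726012-147726261 (minus strand) and chr11:49609429-49609678 (plus strand). Capitals mark GGAA or its complement TTCC, the core bound by ETS factors such as ERG, FLI1 and ETV2, which act in endothelial cells.

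Kdr: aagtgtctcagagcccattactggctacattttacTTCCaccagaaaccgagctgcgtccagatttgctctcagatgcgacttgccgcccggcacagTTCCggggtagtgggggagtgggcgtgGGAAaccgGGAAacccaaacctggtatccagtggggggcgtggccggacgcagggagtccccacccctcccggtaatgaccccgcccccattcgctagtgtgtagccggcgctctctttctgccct
Flt1: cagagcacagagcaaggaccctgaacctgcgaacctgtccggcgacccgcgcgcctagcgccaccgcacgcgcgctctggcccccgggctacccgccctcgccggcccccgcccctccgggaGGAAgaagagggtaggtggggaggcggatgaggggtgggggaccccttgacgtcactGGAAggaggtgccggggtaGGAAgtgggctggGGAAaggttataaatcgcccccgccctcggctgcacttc
Flt4: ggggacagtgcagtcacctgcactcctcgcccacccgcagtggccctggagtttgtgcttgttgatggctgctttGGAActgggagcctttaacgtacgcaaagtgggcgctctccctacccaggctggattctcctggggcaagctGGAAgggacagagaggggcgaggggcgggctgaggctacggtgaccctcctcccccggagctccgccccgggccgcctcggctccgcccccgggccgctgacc

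The core occurred 4 times upstream of *Kdr*, 4 times upstream of *Flt1* and 2 times upstream of *Flt4*. It is short and common: 93.4% of the 32851 RefSeq promoter windows of this length held at least 1, with a median of 3, and these matches are a description of the letters only. The windows were GC-rich, at 61.6%, 70.4% and 68.4%. The GC box GGGCGG or CCGCCC occurred 2, 3 and 3 times (32.7% of all windows held 1), and TATAAA on either strand occurred only before *Flt1* (12.4% of all windows).

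The libraries held 179454146 to 234726019 UMIs, and 5869 cells were kept in cHet Rep1, 6291 in cKO Rep1, 9350 in cHet Rep2 and 11938 in cKO Rep2, which is the order of all sets of 4 values below. Median depth was 17240.5 to 22972 UMIs per cell. cHet Rep1 stood apart with 37093 deposited barcodes, against 9307 to 16775 in the others, and with 60 of the 70 cells of an endothelial subcluster led by *Cdh11*, *Tenm4* and *Ctnna2* that also carried mesodermal markers. This subcluster and one of 3 cells led by *Epcam* were set aside as mixed in the comparisons that leave them out. Kept barcodes shared between libraries numbered 12 for the Rep1 pair, 41 for the Rep2 pair and 0 for other pairs. *Kmt2d* was at 17.4, 15.2, 23.9 and 21.0 counts per 1e6 UMIs (CPM) over all cells, and *Tbx1* at 78.0, 75.2, 65.8 and 60.2 CPM. Counts of 3′ ends do not show whether floxed exons were lost, so the labels of the genotypes are not tested by them.

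The cells fell into classes by markers that did not include the VEGF genes, which were also left out of the clustering. The endothelium (447, 275, 526 and 664 cells) had UMIs of all 17 of its markers in every library, among them *Cdh5* and *Pecam1*, with a summed level of 4470 to 6934 CPM, against 215 to 302 CPM in mesoderm. Blood markers reached 6.91 to 20.3 CPM there, and mesodermal markers 214, 124, 168 and 167 CPM. The epithelium (449, 263, 541 and 1099 cells) held clusters like surface ectoderm, pharyngeal endoderm and otic vesicle, and the mesoderm (4521, 5369, 7929 and 9730 cells) held 13 types and clusters with at least 30 cells per library. Clusters named for a type are groups of cells like that type. Levels are given as CPM of the UMIs summed over the cells of a group, per library, and are compared between cell groups for 1 gene. Their order between genes served only to choose which genes of a list are named. Groups of cells come from the same libraries and the same clustering, so differences between them are described without a test.

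*Vegfa*, the chief ligand of KDR, was highest in pharyngeal endoderm-like cells, at 48.6, 49.4, 53.6 and 58.8 CPM. Of the 19 types and clusters with at least 30 cells in every library, the next by mean were cardiac muscle-like cells, at 35.0, 24.0, 29.2 and 38.9 CPM, and the ranges did not overlap. Posterior second heart field (pSHF)-like cells followed with 31.1, 23.5, 28.7 and 37.6 CPM and anterior second heart field (aSHF)-like cells with 29.9, 21.4, 30.5 and 32.1 CPM, and the ranges of these 3 overlapped. The other epithelia were lower, with 9.03 to 17.1 CPM in otic vesicle-like and 12.8 to 22.0 CPM in surface ectoderm-like cells. As a whole the epithelium had 19.9, 22.2, 27.7 and 32.1 CPM and the mesoderm 14.6, 12.1, 16.7 and 18.1 CPM, so the epithelium was 1.37- to 1.84-fold higher in each library. The endothelium had the lowest mean of the 22 types and clusters, with 6.83, 4.29, 8.70 and 7.68 CPM, but the next cluster, led by *Cyp26a1*, *Cyp26c1* and *Vcam1*, overlapped with it (5.86 to 10.1 CPM) and was above it in 3 of 4 libraries. The cluster led by *AY036118*, with as few as 2 cells in a library, reached 3.03 CPM in its lowest. Since the mesoderm made up most cells, it still held 76.1% to 83.2% of the *Vegfa* UMIs of a library and the epithelium 7.63% to 16.3%.

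*Vegfb* was spread more evenly than the other ligands. Cardiac muscle-like cells had the highest mean, with 138.6, 131.8, 121.0 and 144.1 CPM, and their range did not overlap that of the endothelium, at 49.0, 47.1, 41.9 and 39.4 CPM. The means of the endothelium (44.3 CPM) and of the neurons (45.1 CPM, 31.7 to 55.0 CPM) were the lowest and close to each other, and each was the lower one in 2 of 4 libraries. Mesoderm had 98.5, 101.2, 90.5 and 89.5 CPM and epithelium 69.0, 71.3, 65.1 and 63.9 CPM, a ratio of 1.39 to 1.43 in the 4 libraries. The mesodermal types and clusters with at least 30 cells per library overlapped with their neighbours, from a mean of 105.1 CPM in the cluster led by *Dach2* to 80.9 CPM in the cluster led by *Cacna2d3*.

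By share of UMIs, *Vegfc* was mostly mesodermal. The mesoderm had 112.4, 117.0, 163.0 and 172.4 CPM and the epithelium 16.5, 11.4, 8.71 and 8.17 CPM, a 6.80- to 21.1-fold difference within libraries. The mesoderm held 92.7% to 96.8% of the *Vegfc* UMIs and 77.0% to 85.3% of the cells. After every cell was thinned to 5000 UMIs, 35.6% to 46.7% of mesodermal cells had a *Vegfc* UMI, against 0.935% to 4.18% of surface ectoderm-like cells, the type of the lowest mean level (5.62 to 13.7 CPM), whose range overlapped with those of the neurons and the other epithelia. Within the mesoderm it was highest in the cluster led by *Pax3*, *Tcf15* and *Fap* (198.3, 163.8, 319.6 and 316.2 CPM), followed by the clusters led by *Cyp26a1*, *Corin* and *Vcam1* (169.7, 177.1, 250.5 and 262.8 CPM) and by *Cyp26a1*, *Cyp26c1* and *Vcam1* (129.5, 145.2, 281.0 and 284.9 CPM), and by cranial mesenchyme-like cells (175.3, 161.7, 233.5 and 243.1 CPM). These 4 overlapped in range. The cluster led by *Cacna2d3*, *Hoxd3* and *Scn3a* was the lowest of the 13 mesodermal groups with at least 30 cells per library, at 42.1 to 50.7 CPM. *Vegfc* was also present in part of the endothelium. In its small arterial-like subcluster (below) the level lay above that of the cluster led by *Pax3* in every library but cHet Rep1.

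*Vegfd* was low everywhere and, by share of UMIs, mostly mesodermal, with 10.89, 12.50, 19.97 and 16.97 CPM in mesoderm, 1.23 to 2.43 CPM in epithelium and 0.650 to 1.12 CPM in endothelium. Neuron-like cells, at 9.06, 7.80, 14.96 and 13.0 CPM, were within the mesodermal range, at rank 7 of the 22 types and clusters by mean, and held 1.68% to 3.67% of the *Vegfd* UMIs, against 92.3% to 97.3% in the mesoderm. The same pair of clusters led by *Cyp26a1* that were rich in *Vegfc* had the highest *Vegfd*, at 28.5, 27.3, 45.7 and 44.2 CPM in the one with *Corin* and 21.4, 22.6, 37.0 and 35.9 CPM in the one with *Cyp26c1*. Cranial mesenchyme-like cells (15.5, 16.5, 29.5 and 24.5 CPM) and the cluster led by *Vtn* (14.1, 16.5, 28.2 and 21.8 CPM) followed. In contrast to *Vegfa*, *Vegfd* was near its lowest in cardiac muscle-like cells (0.253 to 1.84 CPM) and pSHF-like cells (1.11 to 1.49 CPM). Over 22 types the means of log2(CPM + 5) of *Vegfc* and *Vegfd* had a Pearson correlation of 0.61, those of *Vegfb* and *Vegfc* one of 0.60 and those of *Vegfa* and *Vegfd* one of -0.53. Over the 19 groups with at least 30 cells per library the values were 0.59, 0.64 and -0.49. The types share libraries and these values are a description.

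**Figure D1:**
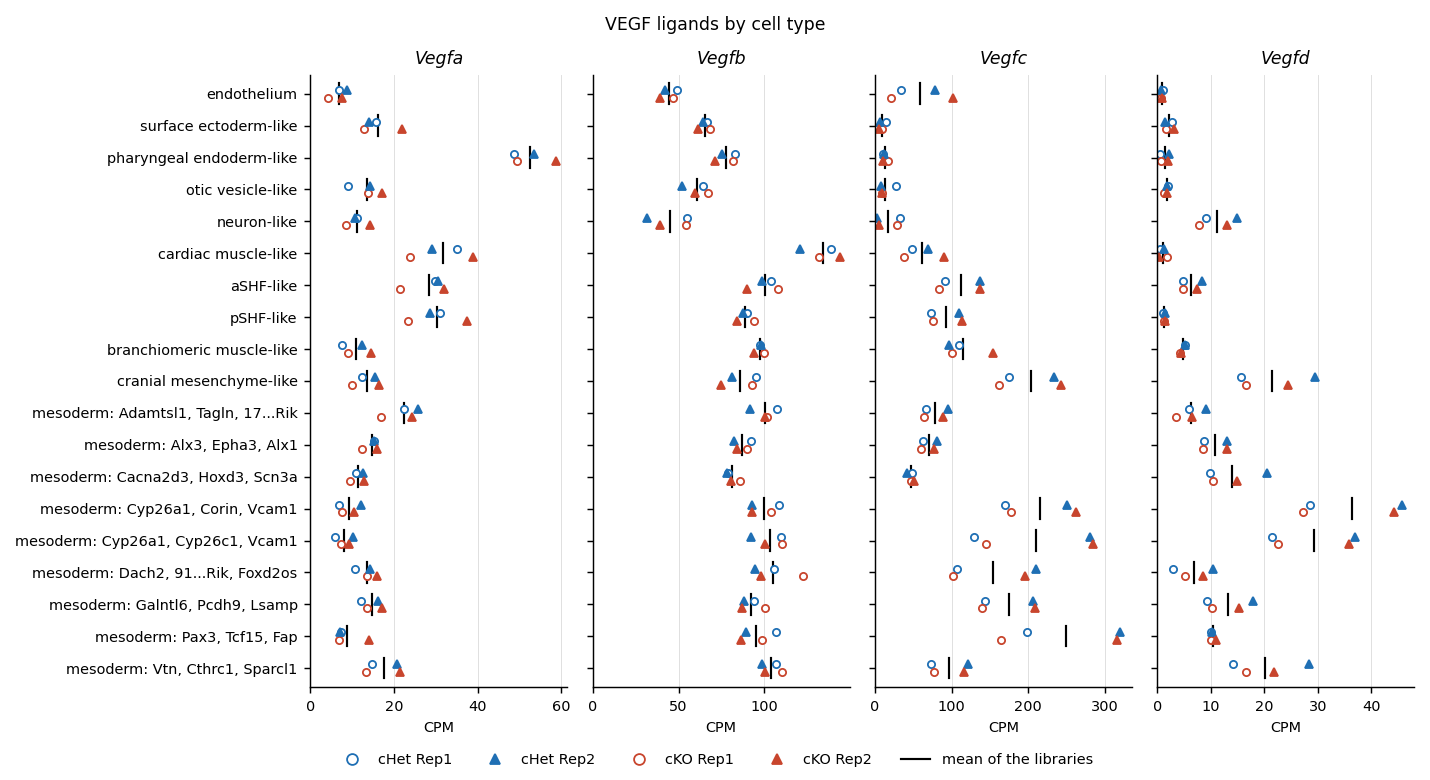
Ligand levels (CPM, linear axes starting at 0, with a different range in each panel) in the 19 types and clusters with at least 30 cells in every library; points are the 4 libraries and black bars their means. Among these groups, with the endothelium taken as a whole, *Vegfa* peaks in pharyngeal endoderm-like cells (48.6 to 58.8 CPM) and *Vegfc* and *Vegfd* in mesodermal clusters. The endothelium has the lowest mean for *Vegfa* and *Vegfb*, in ranges that overlap with those of the next type or cluster.

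The receptor genes were endothelial. *Flt1* had 362.1, 377.0, 597.3 and 644.4 CPM in the endothelium, *Kdr* 369.4, 386.7, 711.1 and 721.1 CPM and *Flt4* 95.4, 86.7, 111.6 and 95.7 CPM. For each of the 3 genes the endothelial range lay above the ranges of all other 21 types and clusters. The endothelium made up 4.37% to 7.62% of the cells and held 74.4% to 82.2% of the *Flt1* UMIs, 74.5% to 80.5% of the *Kdr* UMIs and 83.9% to 93.6% of the *Flt4* UMIs. Endothelial levels exceeded those of all cells outside it 43.4- to 82.3-fold for *Flt1*, 40.4- to 78.6-fold for *Kdr* and 99.4- to 253-fold for *Flt4*. Without the subclusters of mixed markers, *Kdr* in the endothelium was 402.1, 388.1, 713.1 and 723.9 CPM, so that cHet Rep1 differed most.

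Rep2 was higher than Rep1 for *Kdr* in the endothelium by 1.92-fold in cHet and 1.86-fold in cKO, and for *Flt1* by 1.65- and 1.71-fold, but for *Flt4* by only 1.17- and 1.10-fold. The ratio of cKO to cHet within a replicate was 1.05 and 1.01 for *Kdr*, so the replicates differed more than the genotypes did.

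In thinned cells, 76.5%, 80.0%, 93.9% and 89.6% of endothelial cells had a *Kdr* UMI and 73.4%, 79.3%, 86.7% and 90.7% an *Flt1* UMI. The same shares in cranial mesenchyme-like cells, where *Kdr* was near its lowest level, were 0.274% to 1.07% for *Kdr*, 1.496% to 2.49% for *Flt1* and 0.125% to 0.427% for *Flt4*. By mean level these cells were at rank 12 of 22 for *Flt1* (4.07 CPM) and 7 of 22 for *Flt4* (0.795 CPM), so they were not the lowest for these genes. Their ranges overlapped with those of the next type. Counts were not corrected here for ambient RNA, so whether such low levels are expression was not tested. In the cluster led by *Vtn*, of the lowest mean *Flt1*, at most 0.632% of cells had an *Flt1* UMI. *Kdr* and *Flt1* were found together in 59.5%, 65.1%, 82.3% and 82.2% of endothelial cells. *Flt4* was found in 33.1% to 43.2% of them, and 78.0% to 96.0% of the cells with *Flt4* also had *Kdr*. All 3 receptors were seen in 22.5% to 36.3% of the cells and none in 1.14% to 7.83%. These shares were higher in Rep2 for each combination with a receptor, and a cell without a UMI at this depth may still express the gene.

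Within the endothelium the receptors did not peak in the same subclusters. *Flt1* was highest in arterial-like cells (10, 4, 43 and 63 cells), at 786.1, 783.0, 1071.5 and 987.2 CPM. Of the 8 subclusters left after the mixed pair was set aside, it had its lowest mean in progenitor-like cells, at 231.7, 269.3, 263.5 and 265.3 CPM. These cells carried 4 of 6 progenitor markers, among them *Etv2*. The ratio of arterial-like to progenitor-like cells was 2.91 to 4.07 in the 4 libraries. Of these 8, the endocardium-like subcluster and the one led by *Hopx*, *Ttn* and *Tnni1* (165 cells) also carried markers of cardiac muscle and mesoderm, and 3 arterial markers each. The one led by *Hopx* also carried 3 progenitor markers, with *Etv2* among its leading genes. The arterial-like one also carried 3 markers of smooth muscle and pericytes, 3 of endocardium and 2 of mesoderm. *Kdr* had its highest means in the subclusters led by *Vwa1*, *Car4* and *Foxq1* (451.9, 477.7, 978.3 and 1040.0 CPM) and by *Col15a1*, *Sntb1* and *Plcl1* (516.9, 422.7, 893.8 and 963.8 CPM), and arterial-like cells had 293.3, 456.8, 446.1 and 467.4 CPM. Progenitor-like cells had 311.5, 304.6, 530.6 and 556.3 CPM of *Kdr*, which is among the first genes of the endothelial lineage. *Flt4* was highest in the *Col15a1* subcluster, at 162.5, 143.2, 152.0 and 123.0 CPM, and 1.98- to 3.17-fold lower in arterial-like cells, at 82.1, 48.9, 59.3 and 38.8 CPM. Endocardium-like cells, of which cKO Rep1 had 0 and cHet Rep1 6, were low in *Flt4* (30.4 CPM in cHet Rep1, 18.4 and 11.1 CPM in Rep2).

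Of the ligands, *Vegfc* was highest in arterial-like cells, with 176.0, 440.5, 435.3 and 652.1 CPM, against 33.6, 20.9, 78.4 and 101.8 CPM in the endothelium as a whole and 10.9 to 24.5 CPM in progenitor-like cells. *Vegfc* was not among the genes used for the clustering. Endocardium-like cells had 121.5 CPM in cHet Rep1 and 176.3 and 79.9 CPM in Rep2. With as few as 4 arterial-like cells in cKO Rep1, no genotype was compared in this group, and the same holds for the progenitor-like and endocardium-like cells.

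**Figure D2:**
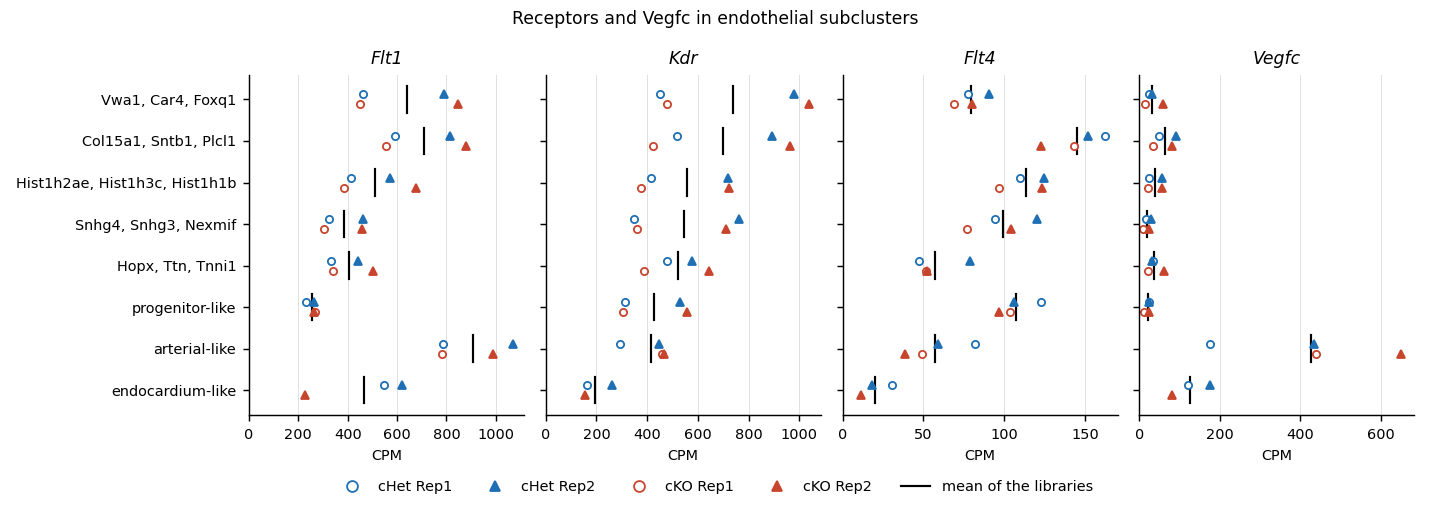
Levels (CPM, linear axes from 0) of the 3 receptors and *Vegfc* in 8 endothelial subclusters, ordered by mean *Kdr*; points are libraries and bars the mean of those that have cells (cKO Rep1 has no endocardium-like cell). *Flt1* and *Vegfc* are highest in the arterial-like row and *Flt4* in the *Col15a1* row.

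Outside the endothelium *Kdr* was uneven. The mesodermal cluster led by *Cacna2d3*, *Hoxd3* and *Scn3a* had 44.0, 31.1, 49.7 and 58.9 CPM, aSHF-like cells 21.29, 11.99, 41.67 and 41.72 CPM, cardiac muscle-like cells 27.8, 10.1, 44.2 and 46.3 CPM and branchiomeric muscle-like cells 14.03, 7.39, 19.00 and 13.44 CPM. In cranial mesenchyme-like cells the level was 0.903, 0.575, 1.41 and 1.11 CPM, so the *Cacna2d3* cluster was 35.3- to 54.0-fold and the aSHF-like cells 20.9- to 37.7-fold above it in the same libraries. In cells of the *Cacna2d3* cluster with no UMI of *Cdh5*, *Pecam1*, *Tie1*, *Tek*, *Esam* or *Cldn5*, *Kdr* was at 38.2, 29.0, 46.2 and 60.5 CPM. These were 92.4%, 92.7%, 89.9% and 92.8% of the cells of the cluster, so this filter could change the level little. The part of endothelial RNA in it was not tested. Neuron-like cells had 19.2, 8.98, 24.1 and 11.8 CPM. *Flt1* outside the endothelium was led by surface ectoderm-like cells, with 17.5, 30.4, 21.6 and 22.4 CPM, followed by the *Cacna2d3* cluster (19.4, 11.6, 21.6 and 14.2 CPM) and pSHF-like cells (18.0, 17.3, 18.5 and 13.0 CPM), whose ranges overlapped. *Flt4* stayed at or below 3.69 CPM in every library of each named type outside the endothelium.

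**Figure D3:**
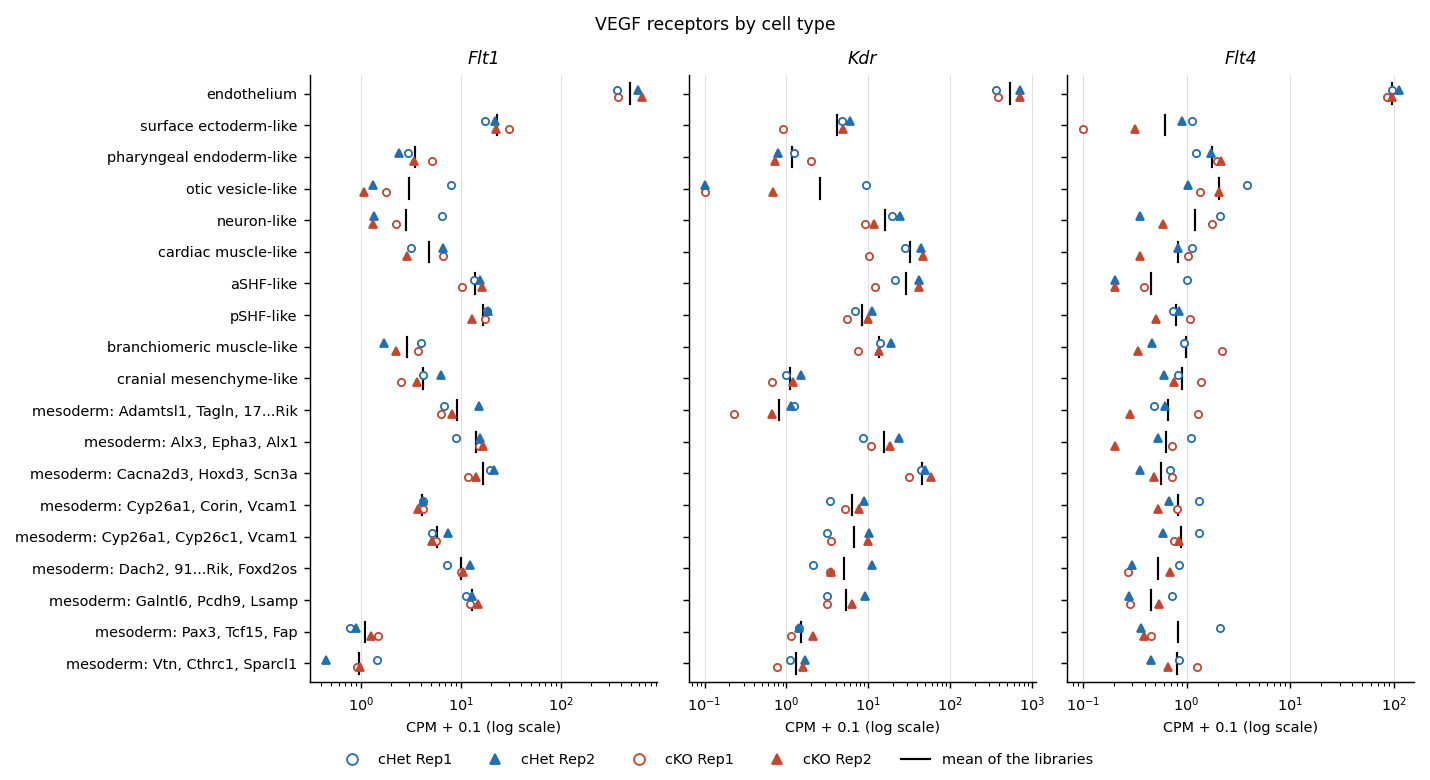
Receptor levels (CPM + 0.1, log axes) in the same 19 types and clusters; points are the 4 libraries and bars the mean. The endothelium lies above all other rows for the 3 genes (362.1 to 644.4 CPM for *Flt1*), and *Kdr* forms a second tier in the *Cacna2d3* cluster, cardiac muscle-like and aSHF-like cells.

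By the correlation of mean log2(CPM + 5) over the 22 types and clusters, the genes most like each receptor out of 11602 were *Klhl6*, *Rapgef4* and *Exoc3l4* for *Kdr* (0.91 to 0.92), *Tnfaip2*, *Prkch* and *Map4k2* for *Flt1* (0.91 to 0.93) and *C130074G19Rik*, *2610203C22Rik* and *Bcl6b* for *Flt4* (0.996 for all 3). The closest to *Vegfa* were *Gm30382*, *Apela* and *Ttc6* (0.79 to 0.80), to *Vegfb* *Pwwp3b*, *Zfp970* and *P4ha2* (0.82 to 0.85), to *Vegfc* *Syde1*, *Col5a2* and *Dse* (0.86 to 0.88) and to *Vegfd* *Crispld1*, *Pir* and *Serpinf1* (0.81 to 0.83). The receptors correlated with each other at 0.77 to 0.83 on this scale. Over the 19 groups with at least 30 cells per library, the values for the 21 closest genes were 0.76 to 0.997. They are descriptions over groups that share libraries.

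Whether loss of *Kmt2d* moved the VEGF genes was asked per library, by edgeR's quasi-likelihood test on UMIs summed over each class, blocking on the replicate, with p-values adjusted over all genes tested by the Benjamini-Hochberg method. In the endothelium 6 of the 7 genes passed the filter on low counts (*Vegfd* did not) and 0 were called, where 0.0383% of 13049 genes were called. *Kdr* differed by 0.05 on the log2 scale (cKO minus cHet, 95% interval -0.08 to 0.18; -0.01 without the subclusters of mixed markers), *Flt1* by 0.09 (-0.04 to 0.22) and *Flt4* by -0.18 (-0.34 to -0.01). *Flt4* had an unadjusted p of 0.0401 and an adjusted p of 0.95, the smallest of the 6. Its levels of 86.7 and 95.7 CPM in cKO lay below the cHet of the same replicate (95.4 and 111.6 CPM), but cKO Rep2 exceeded cHet Rep1. *Vegfa*, already low there, differed by -0.37 (-0.86 to 0.11) and *Vegfc* by 0.002 (-0.38 to 0.38), with opposite directions in Rep1 (33.6 and 20.9 CPM) and Rep2 (78.4 and 101.8 CPM). The *Vegfc*-rich arterial-like cells were 2.24%, 1.45%, 8.17% and 9.49% of the endothelium. Without them *Vegfc* was 31.1 and 17.6 CPM in Rep1 and 53.0 and 55.0 CPM in Rep2, still lower in cKO in Rep1 and higher in Rep2, and the genotypes were not tested in these cells.

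In the epithelium all 7 were tested and 0 called (0% of 14215 genes, of which 610 had an unadjusted p under 0.05; DESeq2 called 3 genes). *Vegfa* was higher in cKO in both replicates, at 22.2 against 19.9 CPM and 32.1 against 27.7 CPM, with a log2 difference of 0.20 (SE 0.11, interval -0.06 to 0.45). The share of the *Vegfa*-rich pharyngeal endoderm-like cells in the epithelium was 19.4% in cHet and 25.1% in cKO in Rep1, and 34.4% and 28.6% in Rep2. With equal weight for the 3 epithelial types *Vegfa* was 24.5, 25.4, 27.3 and 32.6 CPM. The epithelium of cKO Rep1 stood apart in 7 yolk sac and liver markers, at 109 CPM in sum with 0 of them at 0, against 1.12 to 4.604 CPM with 1 to 2 at 0 in the other libraries, and their part in the result was not tested. In the mesoderm 0 of 7 were called (0.11% of 19085 genes). *Vegfc* differed by 0.10 (-0.01 to 0.20), *Vegfa* by -0.05 (-0.28 to 0.18), *Vegfb* by 0.04 (-0.07 to 0.14) and *Vegfd* by -0.003 (-0.26 to 0.25). *Kdr* differed by -0.46 (-0.78 to -0.14, adjusted p = 0.387) and *Flt1* by -0.23 (-0.42 to -0.04, adjusted p = 0.498). For *Kdr* it was -0.0241 without cKO Rep1 and -0.98 without cKO Rep2, in fits that also had no replicate block. These values therefore hold the difference between replicates as well. The ratio of cKO to cHet for *Kdr* was 0.57 within Rep1 and 0.86 within Rep2. Over all cells 0 of 7 were called (0% of 20126 genes, 1139 with an unadjusted p under 0.05, and DESeq2 called 62 genes). *Flt4* differed there by -0.44 (-0.77 to -0.11, adjusted p = 0.815) and *Kdr* by -0.33 (-0.63 to -0.03, adjusted p = 0.849), and the intervals of the other genes crossed 0. The endothelium was 7.62% of cells in cHet and 4.37% in cKO in Rep1, and 5.63% and 5.56% in Rep2. The part of this share in the values was not tested. Of the 27 tests of a VEGF gene in these 4 groups, 5 had an unadjusted p under 0.05, beside 5.91% of the 66475 tests of all genes in the same groups.

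**Figure D4:**
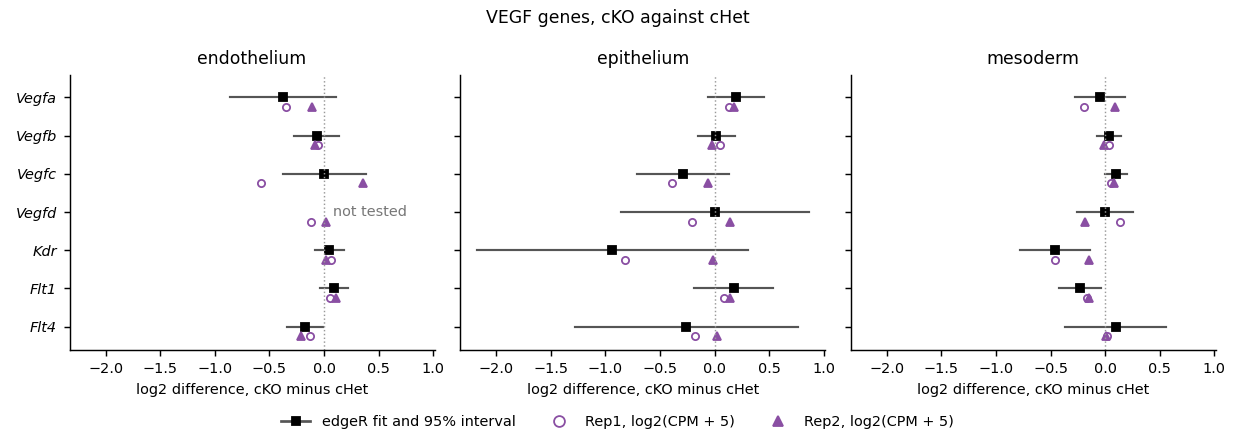
Log2 difference of cKO minus cHet for the 7 genes in each class: squares and bars are the edgeR estimate and its 95% interval, and purple symbols the difference of log2(CPM + 5) within Rep1 and Rep2. Most intervals cross 0, the epithelial *Kdr* interval is the widest, and those of *Flt4* in endothelium and of *Kdr* and *Flt1* in mesoderm lie below 0 without passing adjustment.

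The mesodermal *Kdr* level was 8.93 in cHet and 5.11 CPM in cKO in Rep1, and 14.01 and 12.11 CPM in Rep2, so that both cKO libraries lay below the cHet of their replicate but cKO Rep2 lay above cHet Rep1. The makeup of the mesoderm also differed: aSHF-like cells, which are among the *Kdr*-rich ones, were 9.80% of mesoderm in cHet and 5.23% in cKO in Rep1, but 5.46% and 5.65% in Rep2. The *Cacna2d3* cluster, the richest in *Kdr* of the mesoderm, had a lower share in cKO in both replicates, 7.52% and 5.33% in Rep1 and 8.13% and 7.14% in Rep2. With equal weight for each of the 13 mesodermal types and clusters, *Kdr* was 8.49 and 6.45 CPM in Rep1 and 14.6 and 13.4 CPM in Rep2, a log2 ratio of -0.40 and -0.12. The 17 endothelial markers together were higher in cKO in the mesoderm of both replicates, at 214.8 and 239.2 CPM in Rep1 and 299.7 and 302.4 CPM in Rep2, with 0 of them at 0. The 6 defining ones among them (*Cdh5*, *Pecam1*, *Tie1*, *Tek*, *Esam* and *Cldn5*) went the other way. They were lower in cKO, at 4.02 and 2.31 CPM and at 3.89 and 3.39 CPM. The 9 cardiac muscle markers were also lower in cKO, at 126.6 and 52.8 CPM and at 194.8 and 157.5 CPM. The 6 endothelial progenitor markers moved the same way, at 10.0 and 4.87 CPM in Rep1 and 14.4 and 12.8 CPM in Rep2. Of 21 marker lists summed over the mesoderm, 7 were lower in cKO in both replicates and 7 higher in both. The lower ones also took in the endocardium list (129.8 and 90.4 CPM, 167.9 and 158.3 CPM), the smooth muscle and pericyte list (198.7 and 177.9 CPM, 356.0 and 306.3 CPM), and the lists for pSHF, surface ectoderm and otic vesicle. In mesodermal cells with no UMI of the 6 defining genes *Kdr* was 8.00 and 4.93 CPM in Rep1 and 13.4 and 11.9 CPM in Rep2, and the part of the other lists in the result was not tested.

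Of 118 tests of a VEGF gene in 21 finer groups with at least 30 cells per library, 2 were called, beside 0.54% of the 261855 gene tests in these groups, and 12 had an unadjusted p under 0.05, beside 6.32% of all gene tests. *Kdr* was lower in cKO in both replicates in 7 of the 21 groups and higher in both in 0. These counts were 8 and 5 for *Flt1*, 8 and 4 for *Flt4*, and 7 and 3 for both *Vegfc* and *Vegfd*. For *Vegfb* they were 5 and 6, and for *Vegfa* 2 and 6. The groups share the same libraries, and the counts over all genes were not taken. The largest estimated falls of *Kdr*, in neuron-like cells (-1.05) and in the cluster led by *Dach2* (-0.89), were not called by edgeR (adjusted p = 0.445 and 0.300). The *Kdr* call was in branchiomeric muscle-like cells, the precursors of the muscles of the jaw and face. There it fell from 14.03 to 7.39 CPM in Rep1 and from 19.00 to 13.44 CPM in Rep2, and both cKO libraries lay below both cHet libraries. The share of all genes whose libraries separated in this way was not taken. The log2 difference of *Kdr* was -0.63 (SE 0.14, adjusted p = 0.0355), where 0.964% of 14626 genes were called. It was not called without the block (adjusted p = 1.00) or by DESeq2 (1.00). With 1 library left out, which also took out the block, the difference was -0.96 to -0.42 and the call did not hold. In the cells of this type with no UMI of the 6 endothelial genes above, *Kdr* was 12.3, 7.07, 18.2 and 13.1 CPM. The difference there was -0.57 (adjusted p = 0.151), with 54 of 14351 genes called. The defining genes were at 5.99, 4.87, 5.00 and 4.09 CPM there, lower in cKO in both replicates, and the 17 endothelial markers together, at 134, 104, 181 and 160 CPM, were lower in cKO in both replicates as well (0 to 1 of them at 0, *Sox7*). The group joined a pair of clusters, in which *Kdr* was 14.6, 6.98, 25.4 and 15.7 CPM and 12.2, 8.24, 7.41 and 7.63 CPM. Only in the first of them was it lower in cKO in both replicates.

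*Flt1* fell in the mesodermal cluster led by *Cacna2d3*, *Hoxd3* and *Scn3a*, from 19.4 to 11.6 CPM in Rep1 and from 21.6 to 14.2 CPM in Rep2, and both cKO libraries lay below both cHet libraries. Here too the share of all genes that separated in this way was not taken. The log2 difference of *Flt1* was -0.63 (SE 0.15, adjusted p = 0.00487), where 0.717% of 13381 genes were called. It too was lost without the block (adjusted p = 1.00) and by DESeq2 (1.00). With 1 library left out, which also took out the block, the difference was -0.75 to -0.55 and the call did not hold. In the cells without the 6 endothelial genes the difference was -0.54 (adjusted p = 0.626). In those cells 0 of 13209 genes were called and 686 had an unadjusted p under 0.05, so that every call in this cluster was lost. The defining genes were at 6.52, 3.88, 6.35 and 5.52 CPM there, again lower in cKO in both replicates, while the 17 endothelial markers together were at 105, 94.6, 87.6 and 99.7 CPM, with 0 to 5 of them at 0 (*Cdh5*, *Esam*, *Sox7*, *Sox18* and *Erg* in cKO Rep1). *Kdr* in this cluster differed by -0.02 (-0.22 to 0.17).

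**Figure D5:**
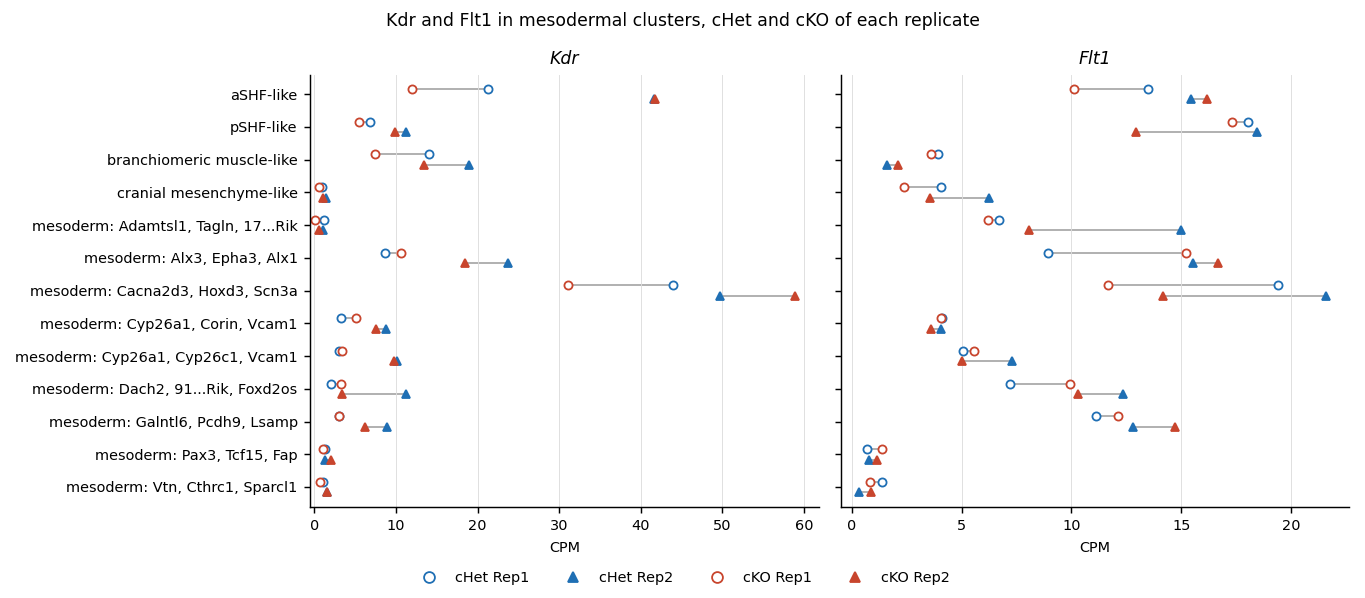
*Kdr* and *Flt1* levels (CPM, linear axes) in the 13 mesodermal types and clusters, with a line joining cHet and cKO of the same replicate. *Kdr* in the branchiomeric muscle-like row and *Flt1* in the *Cacna2d3* row are lower in cKO in both replicates, whereas *Kdr* in the *Cacna2d3* row differs in opposite directions (44.0 to 31.1 CPM in Rep1 and 49.7 to 58.9 CPM in Rep2).

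The difference of the genotype effect between classes was tested in edgeR, blocking on the library. Between endothelium and mesoderm it was called for 2 of the 7 genes, beside 0.968% of 17869 genes: *Kdr* (0.51, SE 0.09, adjusted p = 4.98e-05) and *Flt1* (0.36, SE 0.08, adjusted p = 0.00712), in both of which the estimate in the endothelium was the higher one. DESeq2 called neither (adjusted p = 0.444 and 0.476). For *Kdr* the ratio of cKO to cHet was 1.05 in the endothelium and 0.57 in the mesoderm in Rep1. In Rep2 the ratios were 1.01 and 0.86, so the classes differed less there. For *Flt1* they were 1.04 and 0.82 in Rep1 and 1.08 and 0.85 in Rep2. edgeR's SE borrows from the variance of other genes, so a small p here does not mean that the replicates were alike. Fits with 1 library left out also left out the term for how the classes differ between replicates. A lost call there cannot be laid to 1 library alone. Their values were 0.34 to 0.71 for *Kdr* and 0.0240 to 0.67 for *Flt1*, and neither call held in all 4. The lowest values for *Flt1* were those without cKO Rep2 and without cHet Rep1 (0.0832). Between endothelium and epithelium 0 of 7 were called (0% of 14887 genes, 641 with an unadjusted p under 0.05; DESeq2 called 0), and between epithelium and mesoderm 0 of 7 (0.0654% of 18344 genes).

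The other genes of the pathway gave the setting of these values. The co-receptors *Nrp1* (175.7, 178.0, 354.1 and 412.9 CPM) and *Nrp2* (306.5, 304.1, 444.6 and 393.4 CPM) were well measured in the endothelium, and *Nrp2*, which pairs with FLT4, was low in arterial-like cells (35.2, 48.9, 27.0 and 27.4 CPM) and high in progenitor-like cells (450.3, 432.4, 733.0 and 713.4 CPM). *Pgf*, a ligand of FLT1, had 56.6, 64.6, 70.1 and 72.4 CPM in branchiomeric muscle-like cells and 3.98, 1.43, 1.97 and 0.625 CPM in the endothelium. Of the genes that take part in the maturation of VEGFC, *Pcsk5* (50.4, 49.4, 80.4 and 71.1 CPM) and *Ccbe1* (33.6, 28.7, 33.6 and 39.8 CPM) were measured in the mesoderm, where *Vegfc* was.

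Of the genes of the 7 pathway lists 0 were called in endothelium, epithelium, mesoderm or all cells, at the background shares above. In the endothelium the 12 genes of the endothelial VEGF response, such as *Kcne3* and *Pdgfb*, were all tested. Their median log2 difference was 0.10, with single genes from -0.19 to 0.39. The 10 hypoxia response genes, such as *Pgk1* and *Slc2a1*, had a median of 0.07, the 8 hypoxia regulators, such as *Hif1a* and *Egln1*, 0.02, and the 24 intracellular signalling genes, such as *Cdc42* and *Rac1*, 0.02. The 8 of 10 receptor phosphatases and partners tested, such as *Itgb1* and *Ptprb*, had 0.003, the 6 of 7 maturation genes tested -0.13 and the 3 family members and co-receptors -0.09, against -0.002 over all genes tested. In the epithelium *Hif1a* was at 118.0, 123.7, 183.7 and 178.8 CPM and the median of the 8 hypoxia regulators was 0.06, and that of the 9 of 10 hypoxia response genes tested 0.08, against 0.001 over all genes. In the mesoderm, which held most ligand transcripts, the 7 genes of VEGFC and VEGFD maturation had a median of -0.03 and the 10 hypoxia response genes 0.05, against 0.01 over all genes. The 10 of 12 endothelial VEGF response genes tested there had a median of -0.11, with single genes from -0.45 to 0.81. Over all cells these 12 genes had a median of -0.18, with single genes from -0.50 to -0.05, against 0.02 over all genes.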

How the data were processed

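Single-cell 3′ RNA-seq was made from 2 cHet and 2 cKO libraries, and the authors deposited tables of UMI counts for each barcode, made by Cell Ranger (7.0.1 in the file headers of Rep1, 8.0.1 in those of Rep2 and in the submitters' processing notes) on mm10. The annotation release and the counting of introns are not given in the sources used here. The kit, the Cell Ranger version and the embryos all differ between replicates.

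From these counts, barcodes with at least 3000 genes, at most 10% mitochondrial and at most 5% hemoglobin UMIs were kept, and 361, 358, 391 and 637 doublets were removed after Scrublet scoring in scanpy 1.11.5, taking the expected share of highest scores because the automatic threshold marked as few as 0.015% of barcodes. Cells were clustered (2000 variable genes, 30 components, 20 neighbours, Leiden resolution 0.8, endothelial subclusters 0.5; leidenalg 0.10.2) without the 7 VEGF genes, *Pgf*, *Nrp1* and *Nrp2*, and named where at least 3 fixed markers exceeded the remaining cells 2-fold or more and were seen in at least 10% of cells. The mesoderm class was assigned differently: from the clusters in which every other class had a share under 0.5 of its markers, those with at least 3 of 12 mesodermal markers at least 2-fold higher than in endothelium, epithelium and neurons together. The mesodermal clusters held 4 to 9 of the 12 by this rule and 0 to 4 against all other cells, which are mostly mesoderm themselves. The cluster led by *Barx1*, *Dlx2* and *Dlx5* held 5 of the 12 as well, but also 4 of 6 markers of neural crest glia, none of them among its 10 leading genes, and stayed unnamed. Shares of cells were taken after thinning to 5000 UMIs. They and the CPM carry counting error beside the range over libraries.

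UMIs summed per library and group were tested with edgeR 4.0.16 in R 4.3.3 (quasi-likelihood test, TMM, filterByExpr, replicate as a block), with Benjamini-Hochberg adjustment over all genes and a threshold of 0.05. Finer groups needed at least 30 cells in every library. Standard errors were taken from the F statistic. Same-numbered libraries shared a kit, and their deviations from the genotype means correlated at 0.84 to 0.94 in the 3 classes and over all cells, so the replicate numbers were treated as pairs. An exact permutation test of 2 against 2 libraries cannot go below p = 0.33. The code was tested on simulated data. Alternatives were DESeq2 1.42.0, no filter, no block, a minimum of 4000 genes, doublets kept, thinning, Leiden resolution 1.2, and each library left out. Fits with a library left out had no replicate block. After seeing the data, the mixed endothelial subclusters and cells with endothelial markers were also left out.

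The VEGF genes and the pathway and marker lists were chosen with earlier results of these data known. Genes named are the 7 VEGF genes, *Kmt2d* and *Tbx1*, from each pathway list those past the adjusted p and otherwise the 2 with the highest mean CPM, and for each VEGF gene the 3 genes with the most similar levels over types. *Pgf* is named beside *Nrp1* and *Nrp2* outside that rule.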

Additional observations from a re-analysis of the deposited data

Results flagged for a closer look

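The genotype effect in the endothelium differed from that in the mesoderm for 4 of the 81 VEGF and pathway genes tested, by edgeR's test of the difference itself, beside 0.968% of all 17869 genes. For *Kdr* the difference was 0.51 on the log2 scale and for *Flt1* 0.36, as given above. The limit stated there on reading a small p holds for all 4 genes. *Hspb1*, a small heat shock protein phosphorylated downstream of KDR, differed by 1.22 (adjusted p = 0.000984), with 4.38, 5.46, 3.59 and 7.50 CPM in the endothelium and 5.60, 2.98, 8.24 and 7.49 CPM in the mesoderm. *Pgf* differed by -1.39 (adjusted p = 0.0226), with 3.98, 1.43, 1.97 and 0.625 CPM in the endothelium and 19.4, 17.8, 26.8 and 24.2 CPM in the mesoderm. Without the endothelial subclusters of mixed markers the *Pgf* difference was -0.96 (adjusted p = 0.895). The endothelial *Pgf* levels rest on few UMIs, out of 7692736 to 11193816 per library in this class. They were not corrected for ambient RNA. Fits with 1 library left out also lacked the term for how the classes differ between replicates, and none of the 4 calls held throughout. The values were 0.34 to 0.71 for *Kdr*, 0.0240 to 0.67 for *Flt1*, -2.32 to -0.67 for *Pgf* and 0.75 to 1.65 for *Hspb1*.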

How the results depend on the processing

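With edgeR's adjusted p, 5 genes were called in the endothelium, 0 in the epithelium, 21 in the mesoderm and 0 over all cells. DESeq2 called 3, 3, 105 and 62, and no filter on low counts gave 117, 174, 546 and 91. A minimum of 4000 genes per cell gave 89 in endothelium, 21 in epithelium and 0 in mesoderm. With doublets kept there were 11, 7, 0 and 4. Thinned cells gave 29 in endothelium and 12 in epithelium, Leiden resolution 1.2 gave 49 in mesoderm, and leaving out the mixed subclusters gave 89 in endothelium. Without the replicate block 0 genes were called in the endothelium, 0 in the mesoderm and 0 of the 1413 calls over the finer groups, and the log2 differences became -0.65 for both *Kdr* in branchiomeric muscle-like cells and *Flt1* in the *Cacna2d3* cluster (adjusted p = 1.00). No filter gave 2808 calls over the finer groups and 559 against 185 for differences between classes, and DESeq2 gave 101 and 15. The cause of these changes was not tested.

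Both called finer results lost the call in DESeq2 (-0.66 for *Kdr*, -0.65 for *Flt1*) and without cells that had endothelial markers (-0.57 and -0.54). For differences between endothelium and mesoderm, DESeq2 gave 0.54 for *Kdr* and 0.34 for *Flt1*, neither called, and *Pgf* was -0.96 without mixed subclusters and -1.39 without cells with endothelial markers, not called in either. *Kdr* over the mesoderm was called with no filter on low counts (-0.45, adjusted p = 0.0015).

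Of the log2 differences of VEGF genes, those that turned were not called in any fit. In the endothelium *Vegfc* was -0.13 in DESeq2 and -0.0936 with 4000 genes, and *Kdr* -0.0116 without mixed subclusters. In the epithelium thinning gave -0.19 for *Vegfb* and 0.11 for *Vegfc*, and *Vegfd* was -0.13 in DESeq2, -0.12 without the block, -0.12 with 4000 genes and -0.22 with doublets. In the mesoderm *Vegfd* was 0.00404 in DESeq2, 0.00636 with no filter and 0.00187 with doublets, and *Flt4* -0.21 in thinned cells. Over all cells *Vegfa* was 0.00101 without the block and 0.00912 with doublets, and *Vegfd* -5.96e-05 without the block and -0.0782 in thinned cells. The level of *Vegfd* in the endothelium became 1.70 CPM with doublets and 0.411 CPM in thinned cells, and in the epithelium *Vegfc* became 18.6 and *Vegfd* 2.56 CPM with doublets and *Flt4* 0.765 CPM in thinned cells.

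Leaving out 1 library at a time gave 0 to 0 calls in endothelium, 0 to 2 in epithelium, 0 to 1 in mesoderm, 0 to 0 over all cells, 0 to 19 over the finer groups and 6 to 697 for differences between classes. A lone library was then assumed to vary like the others. In the endothelium the log2 differences were -0.64 to -0.19 for *Vegfa*, -0.41 to 0.29 for *Vegfb*, -1.16 to 0.74 for *Vegfc*, -0.24 to 0.37 for *Kdr*, -0.11 to 0.29 for *Flt1* and -0.29 to -0.05 for *Flt4*. In the epithelium they were 0.08 to 0.30 for *Vegfa*, -0.22 to 0.25 for *Vegfb*, -0.91 to 0.35 for *Vegfc*, -0.53 to 0.24 for *Vegfd*, -2.19 to -0.45 for *Kdr*, -0.17 to 0.54 for *Flt1* and -0.83 to 0.11 for *Flt4*. In the mesoderm they were -0.21 to 0.0846 for *Vegfa*, -0.22 to 0.27 for *Vegfb*, -0.0482 to 0.22 for *Vegfc*, -0.28 to 0.27 for *Vegfd*, -0.98 to -0.02 for *Kdr*, -0.34 to -0.15 for *Flt1* and -0.74 to 0.92 for *Flt4*. Over all cells they were -0.19 to 0.16 for *Vegfa*, -0.21 to 0.27 for *Vegfb*, -0.0488 to 0.26 for *Vegfc*, -0.29 to 0.32 for *Vegfd*, -0.72 to 0.0244 for *Kdr*, -0.44 to -0.02 for *Flt1* and -0.80 to -0.11 for *Flt4*. *Kdr* in branchiomeric muscle-like cells ranged from -0.96 to -0.42 and *Flt1* in the *Cacna2d3* cluster from -0.75 to -0.55, not called in any of the 4, and the class differences from 0.34 to 0.71 for *Kdr*, 0.0240 to 0.67 for *Flt1*, -2.32 to -0.67 for *Pgf* and 0.75 to 1.65 for *Hspb1*.

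With 2 libraries per genotype and small arterial-, progenitor- and endocardium-like groups, genotype effects there and small effects elsewhere could not be resolved. Levels of *Vegfd* and *Flt4* outside their main groups rest on few UMIs, as do those of *Pgf* in the endothelium.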

Other observations

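*Nrp1* and *Nrp2*, which bind VEGF ligands beside the receptors, divided the endothelium. *Nrp1* was highest in arterial-like cells, at 369.6, 505.7, 741.3 and 815.1 CPM, against 106.0, 111.5, 223.0 and 253.7 CPM in progenitor-like cells, whereas *Nrp2* was lower in arterial-like than in progenitor-like cells in all 4 libraries. Outside the endothelium, branchiomeric muscle-like cells were rich in *Nrp2*, at 326.8, 393.5, 477.6 and 565.1 CPM, and had 31.4, 25.8, 49.4 and 40.7 CPM of *Nrp1*. These levels are descriptions without a test.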
